A study of Mus musculus with 10 samples.

Results

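Immunity-related GTPases (IRGs) were examined in mouse peritoneal macrophages exposed to oxidized low-density lipoprotein (ox-LDL). The members were 7 genes chosen by name, Irgm1, Irgm2, Igtp, Iigp1, Tgtp1, Tgtp2 and Ifi47, out of 29700 linear gene rows in the table, and all 7 had a row. RNA sequencing was performed on 10 libraries of peritoneal macrophages from 8-week-old C57BL/6 mice, recruited with thioglycollate. Of these, 5 control libraries carried the label untreated, and 5 ox-LDL libraries came from cells primed with lipopolysaccharide (LPS, 100 ng/ml) and then given ox-LDL (100 µg/ml) for 16 h. As labelled, the comparison contains the effects of LPS and ox-LDL together, which cannot be told apart. In the study's own text, the priming step may also apply to the controls. The libraries of a group are described as biological replicates. Whether each came from a separate mouse is not stated, so the p-values measure the spread between these libraries.

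IRGs are interferon-inducible GTPases that protect mouse cells against bacteria and protozoa living in vacuoles. The effector IRGs, termed GKS proteins, carry lysine in the nucleotide-binding loop (P-loop), load onto the pathogen vacuole and break it. The regulatory IRGs, termed GMS proteins, carry methionine at that position, sit on host membranes and hold the effectors inactive there. In macrophages the family is known as a target of interferon-γ and of type I interferon, which LPS induces. Irgm1, Irgm2 and Igtp (also named Irgm3) are the GMS members. Iigp1 (Irga6), Tgtp1 and Tgtp2 (together Irgb6) and Ifi47 (Irgd) are the GKS members.

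The stretch that separates the GMS from the GKS members is the P-loop. The coding bases around it are shown because they define both groups and show how alike the members are. Positions are from the mm9 genome, with capitals marking the codon that reads methionine in GMS and lysine in GKS proteins. Irgm1 lies at chr11:48680257-48680292 on the minus strand, Irgm2 at chr11:58033191-58033226 and Igtp at chr11:58019771-58019806 on the plus strand. Tgtp1 lies at chr11:48801163-48801198 and Tgtp2 at chr11:48873030-48873065 on the minus strand, and Ifi47 at chr11:48909144-48909179 on the plus strand.
Irgm1: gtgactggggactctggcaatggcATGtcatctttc
Irgm2: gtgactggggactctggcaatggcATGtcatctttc
Igtp: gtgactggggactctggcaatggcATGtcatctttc
Tgtp1: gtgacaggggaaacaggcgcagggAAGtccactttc
Tgtp2: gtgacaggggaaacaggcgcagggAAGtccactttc
Ifi47: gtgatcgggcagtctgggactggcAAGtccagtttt

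All 3 GMS members had the same 36 bases in this stretch, and Tgtp1 and Tgtp2 also shared theirs. Across the whole coding sequence Tgtp1 and Tgtp2 were identical at 1244 of 1248 positions (99.68%). The GMS members were 63.06% to 67.18% identical to each other, and a GMS and a GKS member 49.82% to 53.96%.

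The promoters were compared for the letters of 2 interferon response motifs. These were GAAANNGAA, the core of the interferon-stimulated response element (ISRE), and TTCNNNGAA, the gamma-activated site (GAS), searched on both strands from 250 bases before to 50 after each start site. The ISRE letters occurred in 8.56% and the GAS letters in 8.3% of 32851 promoters in the RefSeq table (GRCm38.p6). Of the 7 members 6 were matched in that table, and 5 of them held the ISRE letters. In Irgm2, Igtp, Tgtp1 and Tgtp2 the GAS letters began 11 bases upstream of the ISRE letters. Both motifs within 20 bases occurred in 0.277% of promoters. The bases around the motifs were nearly the same in Irgm2 and Igtp, and in Tgtp1 and Tgtp2, so these 4 promoters are not independent cases. The 120 bases before the start site of these 4 genes and of Irgm1 are shown to compare the placement, with capitals marking motif letters. Their GRCm38.p6 positions are chr11:48871421-48871540 (minus) for Irgm1, chr11:58214857-58214976 (plus) for Irgm2, chr11:58199436-58199555 (plus) for Igtp, chr11:48992247-48992366 (minus) for Tgtp1 and chr11:49064213-49064332 (minus) for Tgtp2.
Irgm1: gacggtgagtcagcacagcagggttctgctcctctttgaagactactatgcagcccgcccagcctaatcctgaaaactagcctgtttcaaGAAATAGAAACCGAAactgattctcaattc
Irgm2: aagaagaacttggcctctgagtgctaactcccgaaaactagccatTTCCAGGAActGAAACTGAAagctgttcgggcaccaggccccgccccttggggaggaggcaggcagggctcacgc
Igtp: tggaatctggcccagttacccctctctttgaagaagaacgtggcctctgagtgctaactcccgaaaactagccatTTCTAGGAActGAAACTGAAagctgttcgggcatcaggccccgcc
Tgtp1: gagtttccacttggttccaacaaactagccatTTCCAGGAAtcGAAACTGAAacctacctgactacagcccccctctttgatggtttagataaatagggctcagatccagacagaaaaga
Tgtp2: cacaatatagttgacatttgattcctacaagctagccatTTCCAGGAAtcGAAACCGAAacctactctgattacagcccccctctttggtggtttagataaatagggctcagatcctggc

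In Irgm1, a pair of ISRE matches overlapped, starting 30 and 24 bases before the start site, and no GAS letters were found. Ifi47 had neither set of letters in its window, and no other start site of this gene was searched. A match here is a description of the letters only, and nothing is drawn from it about any factor.

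The total estimated count per library was 20094647 to 20687289 in controls and 19257131 to 20358017 in ox-LDL libraries. Of all genes, 12654 passed the filter on low counts. Replicate 2 of the ox-LDL group stood apart, with a trimmed mean of M-values (TMM) scaling factor of 0.593 where the remaining treated libraries had 0.837 to 1.19. Expression in control 1, control 4 and ox-LDL 2 deviated towards shorter genes, with a Spearman correlation of the deviation with gene length, across genes, of -0.60, -0.49 and -0.66. That of the other libraries was 0.06 to 0.54. Values below without a unit named otherwise are TMM-normalized CPM (counts scaled to a common library size), which compare a gene between libraries. FPKM, which are also divided by gene length, were used to compare genes.

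All 7 members were upregulated in ox-LDL libraries. In the edgeR quasi-likelihood test, 7 of 7 passed an adjusted p of 0.01, against 9.40% of all genes tested that were higher and 5.35% that were lower. With a log2 fold change above 2 also required, 7 of 7 passed against 4.78% of all genes. The groups did not overlap in any of the 7 genes, with all treated values above all control values, which held for 11.6% of all genes. The median log2 fold change was 4.95 over the members and 0.10 over all genes. The members were chosen with earlier results of these data known, so the share that passed is not an independent test. Iigp1 and Tgtp1 had at most 38 and 15 counts in any control, which left little room for a fall. The same limit held for Tgtp2, which had 6.82 to 18.5 counts in controls 1 to 4 and 117 in control 5. Tgtp1 and Tgtp2, near-identical in sequence, count as 2 of the 7, and with their rows merged 6 members were called. Because these are bulk libraries, more cells of a type and more RNA per cell cannot be told apart.

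**Figure D1:**
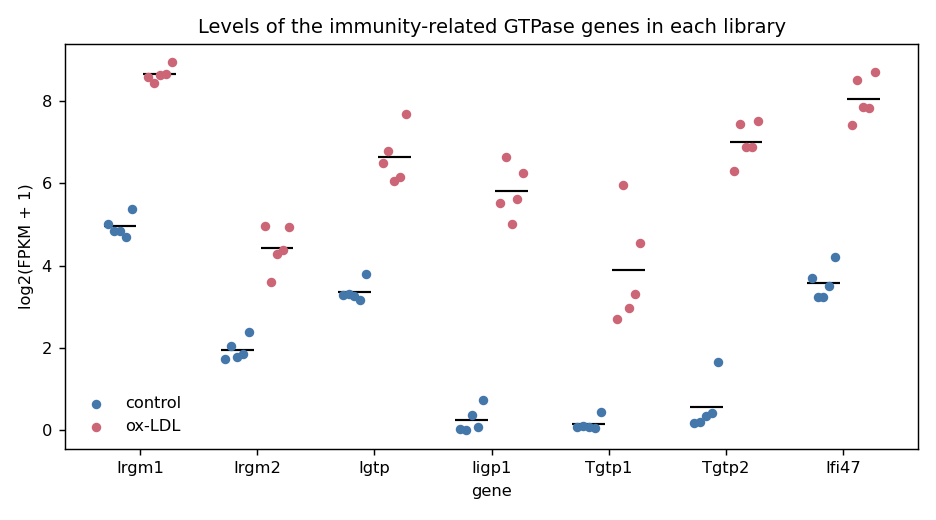
Levels of the 7 genes as log2(FPKM + 1), with 1 point per library, blue for the 5 control and red for the 5 ox-LDL libraries, and black bars for group means. The red points lie above the blue points for every gene, and the rightmost blue point, control 5, is the highest control in all 7.

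Among the GMS members, Irgm1 had the highest level of the 7 genes in controls. Irgm1 (NCBI gene 15944, mm9 chr11:48675470-48685185, minus strand) is a regulator that also acts on mitochondria and autophagy. Its CPM was 69.9, 48.8, 48.0, 51.4 and 71.2 in controls 1 to 5, and 657, 1187, 755, 750 and 1192 in ox-LDL libraries 1 to 5. The lowest ox-LDL library was far above the highest control. Irgm1 rose from 57.9 ± 11.7 to 908 ± 260 CPM (SD, n = 5 per group), a log2 fold change of 3.97 with a standard error (SE) of 0.28 and an adjusted p of 5.62e-06 by edgeR.

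Igtp (NCBI gene 16145, chr11:58013058-58021093, plus strand), a GMS regulator found on the endoplasmic reticulum and lipid droplets, had 18.4, 14.6, 13.9, 15.4 and 21.4 CPM in the controls. The ox-LDL libraries had 141, 350.3, 117, 121 and 462 CPM, so that replicates 2 and 5 were well above the other 3. The rise from 16.8 ± 3.10 to 238 ± 158 CPM gave a log2 fold change of 3.83 (SE 0.43, edgeR adjusted p = 8.85e-05).

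Irgm2 (NCBI gene 54396, chr11:58028530-58036282, plus strand), a GMS regulator of the Golgi apparatus, changed least of the 7 genes. Its control CPM was 8.63, 9.20, 7.06, 9.01 and 12.4. Its ox-LDL CPM was 85.6, 63.4, 58.6, 61.0 and 119. The highest pair was ox-LDL 5 and 1, and ox-LDL 2 was close to the lowest. Irgm2 rose from 9.26 ± 1.94 to 77.5 ± 25.6 CPM, a log2 fold change of 3.07 (SE 0.25, edgeR adjusted p = 1.42e-05).

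The GKS members Iigp1, Tgtp1 and Tgtp2 started close to 0 and showed the largest fold changes of the 7 genes. Iigp1 (NCBI gene 60440, mm9 chromosome 18, 60535683 to 60552281, plus strand) is an effector that loads onto the vacuole of Toxoplasma gondii. Its CPM was 0.0553, 0, 0.642, 0.155 and 1.65 in controls 1 to 5. These stood on 1, 0, 15, 3 and 38 estimated counts. The ox-LDL libraries had 107, 473, 81.3, 123 and 253 CPM, on 1667 to 5529 counts. The rise from a mean of 0.50 ± 0.691 to 207 ± 163 CPM was a log2 fold change of 8.64 (SE 1.02, edgeR adjusted p = 0.000117). Iigp1 ranked 6 by log2 fold change among the 1189 genes higher in ox-LDL. The fitted size rested on few control reads, and was 9.83 without control 5 and 8.03 without ox-LDL 2.

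Tgtp2 (NCBI gene 100039796, chr11:48870696-48877708, minus strand) and Tgtp1 (NCBI gene 21822, chr11:48798829-48807674, minus strand), near-identical neighbours, encode the vacuole-loading effector Irgb6. Tgtp2 had 0.387, 0.385, 0.599, 0.979 and 5.08 CPM in controls and 175.5, 788, 292, 285 and 582 CPM in ox-LDL libraries. Tgtp1 had 0.166, 0.171, 0.128, 0.103 and 0.652 CPM in controls and 12.4, 276, 16.8, 21.6 and 71.4 CPM in ox-LDL libraries. Control 5 was the highest control for each gene, and ox-LDL 2 and 5 were the highest treated libraries. Tgtp2 rose from 1.49 ± 2.02 to 424 ± 253 CPM, a log2 fold change of 8.14 (SE 0.91, edgeR adjusted p = 8.18e-05). Tgtp1 rose from 0.244 ± 0.230 to 79.7 ± 112 CPM, a log2 fold change of 8.28 (SE 1.12, edgeR adjusted p = 0.000285). Without control 5 these became 9.48 for Tgtp2 and 9.06 for Tgtp1, and without ox-LDL 2 that of Tgtp1 became 6.86.

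Reads of this pair could not be assigned to 1 gene with certainty. Of all 50-base words in the Tgtp1 transcript 91.42% also occurred in another gene's transcript, and of those of Tgtp2 90.58%. When the rows were merged, the pair rose from 1.73 ± 2.25 to 504 ± 358 CPM, a log2 fold change of 8.17 (SE 0.92, edgeR adjusted p = 8.28e-05). This sum does not depend on how reads were split between the pair, but without control 5 its log2 fold change was 9.42. Reads that the pair shares with Gm12185, 9930111J21Rik1 and 9930111J21Rik2 still leave the sum uncertain. Tgtp1 made up 32.5%, 28.9%, 19.4%, 9.75% and 11.6% of the pair's counts in controls, but those shares stood on 10.1 to 132 counts in all. Its share in ox-LDL libraries was 6.62%, 26.0%, 5.43%, 7.05% and 10.9%. The ranges overlapped, and the mean log2 ratio of Tgtp1 to Tgtp2 was -2.11 in controls and -3.24 in ox-LDL libraries, a difference of -1.13 (exact two-sided permutation p = 0.0952, n = 5 per group). Without ox-LDL 2 the log2 difference was -1.56 (exact two-sided permutation p = 0.0397).

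Ifi47 (NCBI gene 15953, chr11:48890089-48910476, plus strand), a GKS protein of less well-known function, differed from the other GKS members in its control level. Its CPM was 21.3, 12.0, 11.9, 17.2 and 24.3 in controls and 228, 985, 343, 328 and 796 in ox-LDL libraries. Ifi47 was thus readily detected in every control, and rose from 17.3 ± 5.53 to 536 ± 333 CPM, a log2 fold change of 4.95 (SE 0.48, edgeR adjusted p = 3.40e-05). Of its 50-base words 3.38% also occurred in Olfr56, an annotated gene that overlaps it on the same strand.

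**Figure D2:**
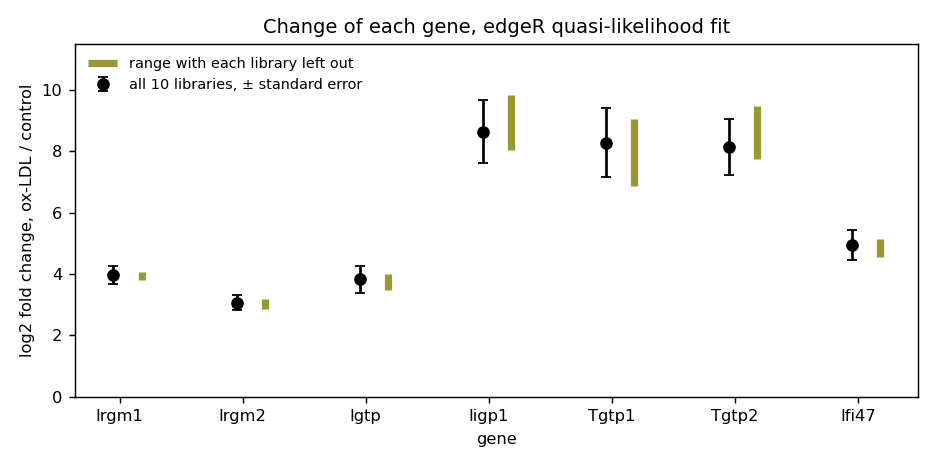
Log2 fold change of each gene, ox-LDL over control, on the vertical axis, with black points for all 10 libraries (bars, ± SE) and olive bars for the range when each library was left out in turn. Irgm1, Irgm2, Igtp and Ifi47 lie between 3.07 and 4.95 with short ranges, whereas Iigp1, Tgtp1 and Tgtp2 lie above 8 with long ranges.

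In each of the other members shared words were few, at 0.09% of the words of Irgm1, 2.93% of Iigp1, 4.9% of Irgm2 and 10.09% of Igtp, all of the last with Irgm2. On mm9, Irgm1, Tgtp1, Tgtp2 and Ifi47 lay within 235007 bases and Igtp and Irgm2 within 23225 bases of the same chromosome. Tgtp1 overlapped Gm12185 on its own strand, Tgtp1 and Tgtp2 overlapped Olfr56 on the opposite strand, and Ifi47 overlapped Gm12188 on the opposite strand. No source used here says if reads were counted by strand, so reads of overlapping genes cannot be told apart.

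Per length, Irgm1 was the most abundant member in 9 of 10 libraries, and Ifi47 in ox-LDL 2. In controls the mean FPKM was 30.5 ± 6.01 for Irgm1, 11.3 ± 3.70 for Ifi47, 9.47 ± 2.00 for Igtp, 2.95 ± 0.777 for Irgm2, 0.616 ± 0.873 for Tgtp2, 0.210 ± 0.287 for Iigp1 and 0.118 ± 0.136 for Tgtp1. The neighbours Ifi47 and Igtp, and the last 3, overlapped in their library values. In ox-LDL libraries the order of mean FPKM was Irgm1 (402 ± 53.6), Ifi47 (280.4 ± 103), Tgtp2 (133 ± 43.2), Igtp (108 ± 56.5), Iigp1 (59.8 ± 27.2), Irgm2 (21.8 ± 8.03) and Tgtp1 (20.9 ± 23.3). Neighbours in this order overlapped throughout, except Iigp1 and Irgm2, whose ranges were 31.1 to 99.3 and 11.1 to 30.2 FPKM. Tgtp2 was thus low in the control order and behind only Irgm1 and Ifi47 in the treated order.

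The summed FPKM of the 3 GMS members was 42.9 ± 8.61 in controls and 531 ± 108 in ox-LDL libraries. That of the 4 GKS members was 12.3 ± 4.87 and 494 ± 187. The ratio of GKS to GMS members within a library was 0.284, 0.217, 0.234, 0.305 and 0.358 in controls 1 to 5. It was 0.595, 1.503, 0.802, 0.812 and 0.961 in ox-LDL libraries, and no ox-LDL value fell within the control range. A ratio within a library does not depend on how libraries are scaled, but a library's trend with gene length can enter it. The highest ratio, 1.503, was in ox-LDL 2, the library with the strongest such trend. The part of that trend in the ratio was not tested. The members together took 0.00910% to 0.0154% of all counts in controls and 0.164% to 0.286% in ox-LDL libraries.

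**Figure D3:**
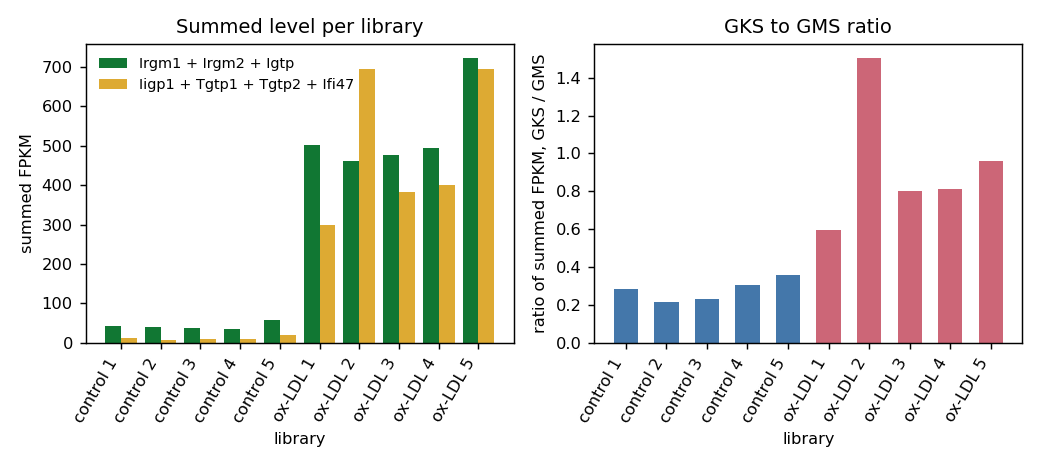
Left, summed FPKM of the GMS members (green) and GKS members (yellow) in each library. Right, the ratio of the summed FPKM, GKS over GMS, with controls in blue and ox-LDL libraries in red. The ratio is 0.217 to 0.358 in controls and 0.595 to 1.503 in ox-LDL libraries.

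The members varied between libraries of the same group. Control 5 was the highest control for 7 of 7 members in CPM and in FPKM. In ox-LDL libraries, replicates 2 and 5 were the highest pair for 6 of 7 members in CPM and for 5 of 7 in FPKM. In CPM the 4 GKS members peaked in replicate 2 and the 3 GMS members in replicate 5, whereas in FPKM Tgtp2 and Ifi47 peaked in replicate 5 and Irgm2 in replicate 1. In FPKM, Irgm1 and Irgm2 were lowest in replicate 2, at 342 and 11.1. Replicate 2 is the library with the lowest TMM factor. Its part in these differences was not tested.

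**Figure D4:**
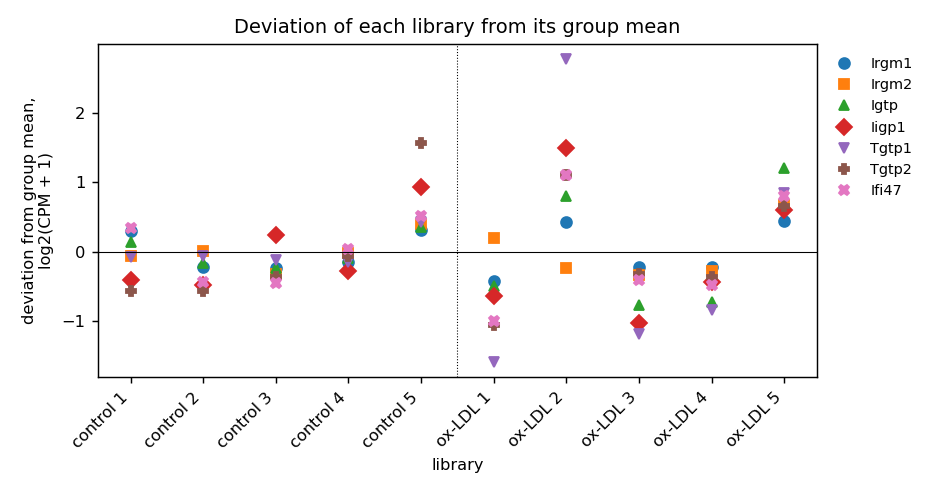
Deviation of each library from the mean of its group in log2(CPM + 1), with 1 symbol per gene and the groups divided by the dotted line. Control 5 and ox-LDL 5 lie above 0 for all genes, and ox-LDL 2 for all genes but Irgm2.

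The value in control 5 above the median of the other 4 controls, in CPM by library size, was 0.851% (Iigp1) to 5.69% (Irgm2) of the level in ox-LDL 5. Without control 5, ox-LDL 2 and ox-LDL 5 together, 7 of 7 members were still called by edgeR, with log2 fold changes of 3.67 for Irgm1, 2.96 for Irgm2, 2.97 for Igtp, 8.77 for Iigp1, 6.78 for Tgtp1, 8.68 for Tgtp2 and 4.21 for Ifi47.

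Further genes of the IRG family were read from the same fit. Of 13 listed, 10 had a row and 9 were tested, of which 6 rose and none fell at an edgeR adjusted p of 0.01, with a median log2 fold change of 3.04. For this and the next lists, the share of all genes was 9.40% higher and 5.35% lower. Gm12250, which encodes the GKS effector Irgb10, rose from 4.59 ± 1.80 to 108 ± 54.1 CPM, a log2 fold change of 4.55 (adjusted p = 2.72e-05). Gm4951 rose from 0.271 ± 0.151 to 23.2 ± 13.1 CPM and Gm12185 from 0.664 ± 0.224 to 5.53 ± 2.83 CPM. Gm12185 shares 50-base words with Tgtp1 and Tgtp2, 9930111J21Rik1 and 9930111J21Rik2 with Tgtp2, and Gm4951 with Iigp1. Reads of these genes are therefore uncertain too. Gm5431 changed least of the genes called, from 13.5 ± 2.34 to 31.2 ± 11.9 CPM. F830016B08Rik and Gm4841 had at most 2 counts in any control, and reached 1.38 ± 0.909 and 4.28 ± 1.45 CPM in ox-LDL libraries. The 3 genes that did not pass were 9930111J21Rik1 (log2 fold change 0.32, edgeR adjusted p = 0.333), 9930111J21Rik2 (0.21, 0.381) and Irgq (0.61, 0.201). Only 2 of the genes were called with at least 10 counts required in every library, or by limma on filtered FPKM. F830016B08Rik and Gm4841 could not meet that count, and Gm4951 and Gm12185 fell to 0.155 and 0.309 CPM in a control. Without a filter, limma on FPKM called 5. The neighbouring family of guanylate-binding proteins, which load onto the same vacuoles, showed 9 of 9 tested genes higher, with Gbp2 from 26.8 ± 7.43 to 2463 ± 1208 CPM. Of the 11 listed, Gbp10 and Gbp11 were not tested. Gbp2b, Gbp4 and Gbp8 were near 0 in controls, at means of 0.0987, 0.394 and 0.357 CPM.

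**Figure D5:**
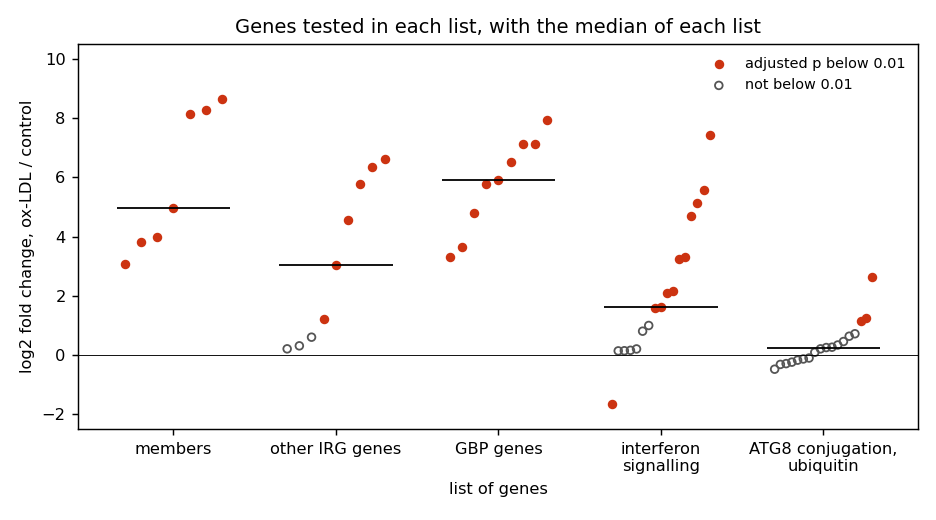
Log2 fold change, ox-LDL over control, of every tested gene in 5 lists, with filled red points at an edgeR adjusted p below 0.01, open points for the others and black lines for medians. The median is 4.95 for the members, 3.04 for other IRG genes, 5.90 for guanylate-binding proteins, 1.64 for interferon signalling and 0.24 for ATG8 conjugation.

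Genes of the interferon pathway, known to drive IRG transcription, were compared next, and 10 of them rose. Of 18 listed genes 17 were tested, of which 10 rose and 1 fell by edgeR, with a median log2 fold change of 1.64. The ligand Ifng, encoding interferon-γ, had 0 to 5 counts in controls and 31 to 405 in ox-LDL libraries. The ligand Ifnb1, encoding interferon-β, had 0 counts in every control and at most 6 in ox-LDL libraries, and was not tested. Among receptors, Ifnar2 rose from 132 ± 26.4 to 393 ± 200 CPM (edgeR adjusted p = 0.00438). The interferon-γ receptor chain Ifngr1 moved the other way, from 171 ± 31.7 to 54.4 ± 11.2 CPM (log2 fold change -1.66, SE 0.21, edgeR adjusted p = 0.000184). The kinase Jak2 rose with a log2 fold change of 1.64 (edgeR adjusted p = 0.000112), and Jak1 did not pass (0.81, adjusted p = 0.0298).

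Among the transcription factors of the pathway some rose and others did not pass the test. Irf1, a factor that binds ISRE elements, rose from 24.0 ± 5.03 to 625 ± 347 CPM (log2 fold change 4.70, edgeR adjusted p = 2.14e-05). Irf8 rose with a log2 fold change of 3.24 and Stat2, a subunit of the type I interferon complex, with 2.10. Irf9, the DNA-binding subunit of that complex, had a log2 fold change of 1.00 and did not pass (edgeR adjusted p = 0.0117), and neither did Irf2 (0.15, adjusted p = 0.647). The inhibitors Socs1, Socs3 and Usp18 also rose, with log2 fold changes of 5.12, 5.58 and 2.17. Socs1 was near 0 in controls (0.628 ± 0.493 CPM, at most 34 counts) and 22.2 ± 24.3 CPM in ox-LDL libraries. Usp18 overlapped between groups, at 2.99 to 8.25 CPM in controls and 7.71 to 44.7 in ox-LDL libraries.

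The ATG8 conjugation machinery, which IRGs need to reach vacuoles, was listed together with ubiquitin adaptors and ligases of the vacuole. Of 18 genes tested 3 rose and none fell by edgeR, against 9.40% higher and 5.35% lower of all genes, and the median log2 fold change was 0.24. All 3 genes that rose were ubiquitin adaptors or ligases. Sqstm1, encoding the adaptor p62, rose from 222 ± 46.4 to 1383 ± 440.5 CPM (log2 fold change 2.64, adjusted p = 0.000105). The ubiquitin ligase Traf6 and Rabgef1 rose with 1.14 and 1.26, close to the threshold (edgeR adjusted p = 0.00825 and 0.00999). Of the same kind, Tax1bp1 (0.72, adjusted p = 0.0239) and Trim21 (0.64, adjusted p = 0.0627) did not pass. None of the conjugation and autophagy genes passed, among them Atg5 (0.27, adjusted p = 0.450) and Gabarapl2 (-0.28, adjusted p = 0.467). The count of 3 fell to 1 without any single library other than ox-LDL 1 or ox-LDL 2, and was 6 without ox-LDL 2.

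The 5 genes outside the family with profiles nearest to the mean profile of the members, by root mean square difference over the 10 libraries in log2(CPM + 1), were Zbp1 (0.27), Isg15 (0.34), H2-Q5 (0.36), Cxcl16 (0.38) and Irf1 (0.39), out of 7631 genes. Among the members Ifi47 was nearest to that mean (0.23) and Tgtp2 farthest (1.33). Isg15 encodes a ubiquitin-like interferon-induced protein, Zbp1 a nucleic acid sensor and Cxcl16 a chemokine and lipoprotein receptor.

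The summed level of 8 macrophage markers was 23168 to 42854 CPM by library size in controls and 13363 to 28376 in ox-LDL libraries, of which Lyz2 alone made up 20597 to 40915 and 9361 to 26339. Csf1r, the receptor for macrophage colony-stimulating factor, ranged from 126 to 225 CPM by library size in controls and from 48.6 to 396 in ox-LDL libraries. Of the 8 markers tested 2 rose, Adgre1 and Cd14. The summed level of the 7 T cell markers with a row was 1.06 to 1.85 CPM in controls and 0.991 to 1.65 in ox-LDL libraries, with Cd3e at 0 counts in controls and at most 1 in ox-LDL libraries. That of 8 natural killer cell markers was 0.406 to 1.301 and 0.104 to 1.45 CPM, and Ncr1 had at most 3 counts. B cell and dendritic cell markers also summed to 7.08 CPM or less in every library. Of the dendritic cell markers Clec9a rose, from 0.322 ± 0.0938 to 1.68 ± 1.11 CPM (edgeR adjusted p = 0.00283). Cd209a, not tested, went the other way, with 0.842 ± 0.704 CPM in controls and 0.0171 ± 0.0383 in ox-LDL libraries. Zbtb46 (log2 fold change 1.24) and Batf3 (-0.83) did not pass (edgeR adjusted p = 0.0578 and 0.332). Neutrophil markers summed to 7.41 to 14.3 CPM in controls and 13.7 to 90.9 in ox-LDL libraries, and mesothelial and stromal markers to 16.7 to 53.1 and 65.7 to 163 CPM, with Msln at most 6 counts. The neutrophil sum was mostly S100a8 (10.0 ± 3.57 and 68.0 ± 51.8 CPM), while S100a9, Mpo and Elane were near 0 in both groups and Ltf, not tested, had 0.960 ± 0.544 CPM in controls and 0.0653 ± 0.0720 in ox-LDL libraries. The stromal genes Dcn (27.1 ± 10.7 and 80.4 ± 14.0 CPM), Col1a1 and Col1a2 made up most of the last sum, and the mesothelial gene Upk3b, not tested, had 0.524 ± 0.253 CPM in controls and 0.0750 ± 0.0988 in ox-LDL libraries. The last sum was higher in every ox-LDL library than in any control, whereas the neutrophil sums overlapped between groups, and the part of these cells in the result was not tested.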

How the data were processed

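Total RNA of 10 macrophage libraries was sequenced by the authors, and per the submitters' processing notes and methods HISAT2 (2.0.5) was the aligner, with mm9 as the genome, while SAMtools (1.4) handled sorting and transcripts came from StringTie (1.3.3.13). The authors deposited estimated counts per gene, of which 13.57% of values were not whole. The step that gave them, and whether it used strand, are not given in the sources used here. The deposited second table was treated as FPKM, since implied gene lengths varied by a median of 0.686% (coefficient of variation) between libraries over 2584 genes.

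Estimated counts were rounded, and 9788 circular RNA rows were left out. Symbols came from the RefSeq table of GRCm38.p6 by NCBI identifier. Genes were tested with edgeR 4.0.16 (R 4.3.3; TMM, filterByExpr, robust quasi-likelihood test, group only, Benjamini-Hochberg over 12654 genes), at an adjusted p of 0.01, also with an absolute log2 fold change above 2. On simulated data, with 200 of 12654 genes changed by log2 2 or 3, 189 were recovered with 1 false call. This recovery describes the simulated data only. In the real data the genes called ranged from 826 to 1755 higher and 436 to 1502 lower with each library left out. The ratio of Tgtp1 to Tgtp2 was tested by an exact two-sided permutation test over all arrangements of the libraries, of which the smallest p is 0.00794. Alternatives used limma 3.58.1 and DESeq2 1.42.0.

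All 7 members are named, with some of the genes of the other lists, and the 5 nearest profiles among genes of at least 10 CPM on average. A gene of the interferon list is counted there but not reported here. The members and lists were chosen with earlier results of these data known. Coding sequences (GENCODE, NCBIM37, which is mm9) were compared in place of proteins.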

Additional observations from a re-analysis of the deposited data

Results flagged for a closer look

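Groups of 5 libraries were examined for a library whose gap to its nearest neighbour exceeded 0.71 of the group's range, Dixon's 95% limit. Of 18 groups 3 held such a library, against 0.9 by chance if groups were independent and normally distributed. The CPM values were not log-transformed and the genes share libraries, so the excess is not a test. Tgtp1 was 0.652 CPM in control 5 and 0.103 to 0.171 among the remaining controls. Tgtp2 was 5.08 CPM in control 5 and 0.385 to 0.979 in the others. Tgtp1 was 276 CPM in ox-LDL 2 and 12.4 to 71.4 among the remaining treated libraries. The reads of both genes cannot be assigned with certainty, and the 3 values share libraries and reads.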

How the results depend on the processing

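All 7 members kept direction and call in every alternative that tested them, including other scalings, DESeq2, limma, the removal of each library's trend with gene length and each library left out. With at least 10 counts required in every library, 4 were called, since Iigp1, Tgtp1 and Tgtp2 were not tested there. Log2 fold changes ranged from 3.67 to 4.07 for Irgm1, 2.47 to 3.19 for Irgm2, 2.97 to 4.00 for Igtp, 5.56 to 9.83 for Iigp1, 3.74 to 9.06 for Tgtp1, 6.44 to 9.48 for Tgtp2 and 4.21 to 5.14 for Ifi47, with a highest adjusted p of 0.00424, that of Tgtp1. The lowest values of Iigp1, Tgtp1 and Tgtp2 came from log2(FPKM + 1), which compresses low genes.

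Deviations of same-numbered libraries, 1 to 5, correlated by -0.04, -0.42, 0.51, -0.38 and 0.42. Each library's trend with gene length also enters these values, so they cannot decide whether the numbers pair the libraries. With the replicate block 7 members, 885 higher genes and 549 lower genes were called. The block changed no call of a member.

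Genes higher were 826 to 1755 with each library left out, 704 by library size alone, 555, 543 and 472 by limma on log2(FPKM + 1), log2(FPKM + 0.1) and log2(FPKM + 1) without a filter, 2045 at an adjusted p of 0.05 and 1946 without control 5, ox-LDL 2 and ox-LDL 5, a choice made after seeing the data. Genes lower were 1244 by DESeq2, 1222 with the length trend removed, 1320 at an adjusted p of 0.05 and 1653 without those 3 libraries. With each library left out they ranged from 436 (without control 4) to 1502 (without ox-LDL 2), and were 437 without ox-LDL 3. Other IRG genes called were 2 with at least 10 counts in every library and by limma on filtered FPKM with either pseudocount, and 5 by limma on FPKM without a filter. Interferon signalling genes called were 7 by limma on FPKM without a filter. ATG8 genes called were 1 by upper quartile, library size alone, limma-voom and limma on FPKM, 5 by DESeq2 and at an adjusted p of 0.05, 7 without the 3 libraries and 1 to 6 with each left out. The Tgtp1 to Tgtp2 log2 difference ranged from -1.56 to -0.87 with each library left out (exact permutation p of 0.0397 to 0.198). The cause of these shifts was not tested. Depth limits the control levels of Iigp1, Tgtp1 and Tgtp2.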
